A study of Mus musculus with 8 samples.

Results

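Of the 35199 genes in the deposited count table, 10 are treated here as the genes of MHC class I and II antigen presentation, chosen as the rows whose symbol equals one of 10 names. The 6 class I genes are H2-K1, H2-D1, B2m, Tap1, Tap2 and Tapbp, and the 4 class II genes are H2-Aa, H2-Ab1, H2-Eb1 and Cd74. All 10 had counts in every library and passed the filter on low counts, as did 12849 genes in all. Class I molecules show peptides made inside the cell to CD8 T cells, and almost every nucleated cell carries them. Class II molecules show peptides from taken-up material to CD4 T cells, mainly on dendritic cells, macrophages and B cells, and in the small intestine also on epithelial cells, where interferon gamma induces them through the coactivator CIITA.

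The cells were ZSgreen-positive tuft cells, a rare chemosensory type of the gut epithelium, taken from adult Dclk1-DTR-ZSgreen mice. This BAC transgene drives a diphtheria toxin receptor and the green reporter from Dclk1 regulatory sequence, so it marks cells in which that sequence is active. One group of 4 mice received scopolamine, an antagonist of muscarinic acetylcholine receptors, from an implanted osmotic pump for 7 days, at a daily dose of 0.5 mg per kg. The sham group of 4 mice, of the same transgenic line, received sodium chloride for 7 days. Pumps were implanted in young adult animals, and both sexes were used in the study, with no sex given per mouse. The Y-linked gene Eif2s3y had 477, 4, 1 and 571 counts in scopolamine mice 1 to 4. It had 2, 711, 828 and 815 counts in sham mice 1 to 4. Live cells with high EpCAM and ZSgreen were sorted from intestinal crypts and villi, 3000 from scopolamine mouse 1 and sham mouse 1 and 4000 from each of the other mice.

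Each library comes from 1 mouse, so the replicates are mice. Estimated counts added up to 20327680, 20244608, 14343362 and 20857433 for scopolamine mice 1 to 4, and 25769940, 40426059, 41428916 and 35391538 for sham mice 1 to 4. All 4 sham totals exceeded all 4 scopolamine totals, so an effect of depth cannot be told apart from one of treatment. Amplification started from 200 pg of RNA with 15 cycles for sham mice 1 and 3, and from 1000 pg with 10 cycles for the other 6 libraries. Levels are given in CPM, for which each count was divided by a library size corrected with its TMM factor, and 3 counts, the floor used here, equalled 0.0729 to 0.212 CPM. That floor takes in counting error alone, because reads were amplified and had no molecular identifiers.

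The sorted cells had the markers of their label. The 11 tuft markers, Dclk1, Trpm5 and Pou2f3 among them, had counts in every library, and their summed level was 17554, 13541, 21714 and 12507 CPM in scopolamine mice 1 to 4 and 18099.8, 18033, 18151 and 15263 CPM in sham mice 1 to 4. The groups overlapped, with the lowest sums in scopolamine mice 4 and 2. Dclk1 was the most abundant of the 11 markers. The median log2 fold change of the 11, scopolamine over sham, was -0.058, against -0.011 over all 12849 genes tested.

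Between the groups, 0 of the 10 genes had an adjusted p under 0.1 in edgeR's quasi-likelihood test (Benjamini-Hochberg over 12849 genes), as had 0% of all genes tested, the smallest adjusted p over all genes being 0.439. Without adjustment, 4 of the 10 had p under 0.05 in edgeR, Tap2, H2-Aa, H2-Ab1 and Cd74, all 4 with the higher mean in scopolamine, against 5.99% of all genes in either direction, 3.33% higher and 2.66% lower. With DESeq2, Tap2 alone of the 10 had an adjusted p under 0.1, against 1.31% of the genes that DESeq2 tested. The CPM values of the groups did not overlap for 1 of the 10, again Tap2, against 3.88% of all genes. The median log2 fold change was 0.060 for class I and, for class II, 1.31. Of the 10, 8 had a log2 fold change above 0, against 49.1% of all genes.

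**Figure D1:**
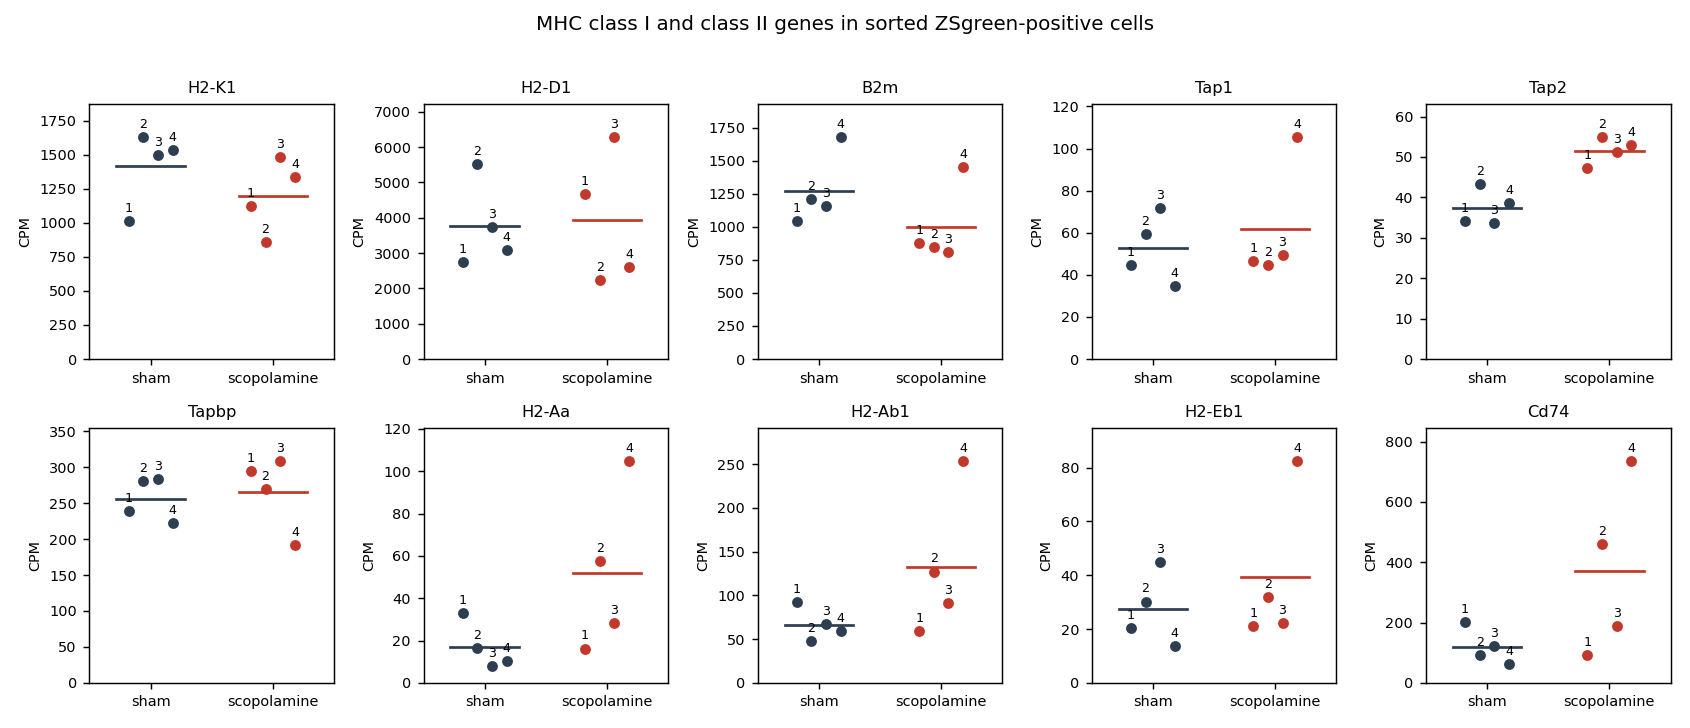
Level of each of the 10 genes in CPM (vertical axis, linear from 0, scaled per gene) in the 4 sham and 4 scopolamine libraries; points are mice, numbered 1 to 4 in each group, and lines are group means. The groups overlap for every gene but Tap2, and scopolamine mouse 4 is the highest library for Tap1 and for all 4 class II genes.

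H2-K1 and H2-D1 encode the classical class I heavy chains, which bind the peptide. H2-K1 (GRCm38 chromosome 17 from 33996017 to 34000347) had 1122, 859, 1479.7 and 1337 CPM in scopolamine mice 1 to 4 and 1014, 1627, 1501 and 1534 CPM in sham mice 1 to 4. Scopolamine mouse 2 was lowest and sham mouse 2 highest, and sham mouse 1 lay among the scopolamine mice. Its log2 fold change was -0.24 (standard error 0.20, adjusted p = 0.881 in edgeR), and it was -0.12 without scopolamine mouse 2, -0.39 without sham mouse 1 and -0.015 with the letter of the mouse ID as a covariate. H2-D1 (chromosome 17 from 35262730 to 35267499) had 4679, 2225, 6273 and 2603 CPM with scopolamine and 2736, 5508, 3741 and 3082 CPM in sham. Both groups spread widely, scopolamine mouse 3 being highest and scopolamine mouse 2 lowest. The log2 fold change of H2-D1 was 0.067 (standard error 0.33, adjusted p = 0.991 in edgeR), and it was below 0 in 7 of 20 alternative fits.

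Within a library, the H2-D1 count divided by the H2-K1 count was 4.17, 2.59, 4.24 and 1.95 in scopolamine mice 1 to 4 and 2.70, 3.39, 2.49 and 2.01 in sham mice 1 to 4. H2-D1 had the larger count in every library, and the ratio was largest in scopolamine mice 3 and 1 and smallest in scopolamine mouse 4. These heavy chains resemble each other and the nonclassical class I genes, so part of their reads cannot be assigned with certainty. Of the distinct 31-base words in annotated transcripts, 22.8% of those in H2-K1 and 26.9% of those in H2-D1 also occur in another gene, 11.1% of H2-K1 words in H2-D1 and 13.8% of H2-D1 words in H2-K1. The split of reads between them, and with it the ratio, is therefore uncertain, to an extent that was not measured. The nonclassical gene H2-Q1, chosen after its values were seen, was low in the mice with the largest ratios. It had 6.16 and 1.27 CPM in scopolamine mice 1 and 3 and 0.900 CPM in sham mouse 2, against 25.6 to 40.0 CPM in the others. Whether the mixed strain origin of the line had a part in these values was not tested.

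B2m encodes beta-2 microglobulin, the invariant light chain that every class I heavy chain needs at the surface. It (chromosome 2 from 122147686 to 122153083) was measured at 879.8, 848, 810.0 and 1453 CPM in scopolamine mice 1 to 4 and 1046, 1207, 1154 and 1675 CPM in sham mice 1 to 4. Scopolamine mice 1, 2 and 3 were below all sham mice, while scopolamine mouse 4 was above all sham mice but mouse 4. For B2m the log2 fold change was -0.35 (standard error 0.22, adjusted p = 0.833 in edgeR), and it was -0.60 without scopolamine mouse 4, -0.19 without sham mouse 4 and -0.10 with the letter of the mouse ID as a covariate. The 31-base words of B2m occur in no other annotated gene, although the gene overlaps Patl2 on the opposite strand.

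Tap1 and Tap2 form the transporter that carries peptides from the cytosol into the endoplasmic reticulum. Tap1 (chromosome 17 from 34187553 to 34197225) had 46.5, 44.9, 49.5 and 105 CPM in scopolamine mice 1 to 4 and 44.5, 59.4, 71.9 and 34.6 CPM in sham mice 1 to 4. Scopolamine mouse 4 stood above the rest, and the other 3 scopolamine mice lay within the sham range. Its log2 fold change was 0.23 (standard error 0.33, adjusted p = 0.934 in edgeR), and turned to -0.17 without scopolamine mouse 4.

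Tap2 (chromosome 17 from 34203527 to 34216321) had 47.3, 54.8, 51.2 and 52.9 CPM in scopolamine mice 1 to 4 and 34.1, 43.3, 33.7 and 38.6 CPM in sham mice 1 to 4. Every scopolamine mouse was above every sham mouse (two-sided exact permutation test of mean log2 CPM, p = 0.0286, the smallest possible with 4 mice per group). The log2 fold change was 0.46 (standard error 0.18, adjusted p = 0.812 in edgeR and 0.0861 in DESeq2), and over all alternative fits it ran from 0.31 to 0.54. Without both low-input sham libraries it was 0.31, the smallest of these, since sham mice 1 and 3 had the lowest Tap2 levels. The unadjusted p of Tap2 in edgeR was 0.0285, but 0.184 without those libraries, 0.163 with cycles as a covariate and 0.0600 without the filter. It was also above 0.05 without scopolamine mouse 2 (0.0753), scopolamine mouse 4 (0.0587), sham mouse 1 (0.0656) or sham mouse 3 (0.0609). Tap2 varied least of the 10 genes among the scopolamine mice, with a standard deviation of 6.24% of the mean, against 47.5% for Tap1. In Tap2, 14.3% of 31-base words are shared, chiefly with the noncoding gene Gm15821, which overlaps it on the opposite strand, and whether reads were counted by strand is not given.

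Tapbp encodes tapasin, which holds class I molecules at the transporter while peptide is loaded. Its level (chromosome 17 from 33915899 to 33929292) was 295, 269, 308 and 192 CPM with scopolamine and 238, 281, 284 and 222 CPM in sham, mouse 4 being the lowest of each group. The groups overlapped fully, and the log2 fold change was 0.054 (standard error 0.17, adjusted p = 0.983 in edgeR). Tapbp overlaps Zbtb22 on the same strand and Gm19412 on the other, and 26.9% of its 31-base words are shared, so its counts can include reads of those genes.

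H2-Aa and H2-Ab1 encode the alpha and beta chain of the class II molecule I-A. H2-Aa (chromosome 17 from 34282744 to 34287823) had 16.2, 57.5, 28.5 and 105 CPM in scopolamine mice 1 to 4 and 32.9, 16.3, 7.88 and 10.4 CPM in sham mice 1 to 4. Scopolamine mice 4 and 2 were above all sham mice, mouse 3 lay just under sham mouse 1, and scopolamine mouse 1 was within the sham range. The log2 fold change was 1.62 (standard error 0.60, adjusted p = 0.812 in edgeR and 0.229 in DESeq2). In exact permutation tests of mean log2 CPM (two-sided), p was 0.143 for H2-Aa.

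H2-Ab1 (chromosome 17 from 34257689 to 34269419) had 58.8, 127, 90.9 and 253 CPM with scopolamine and 92.8, 47.5, 67.7 and 58.8 CPM in sham. Again scopolamine mice 4 and 2 were highest, and sham mouse 1 was above scopolamine mice 3 and 1. Its log2 fold change was 0.99 (standard error 0.40, adjusted p = 0.812 in edgeR), with p = 0.200 in the same exact permutation test. H2-Eb1 (chromosome 17 from 34305867 to 34316674), the beta chain of the class II molecule I-E, had 21.2, 32.0, 22.1 and 82.4 CPM with scopolamine and 20.4, 30.2, 45.1 and 13.5 CPM in sham. Scopolamine mouse 4 stood alone at the top, and sham mouse 3 was second. The log2 fold change of H2-Eb1 was 0.53 (standard error 0.50, adjusted p = 0.893 in edgeR), and without scopolamine mouse 4 it turned to -0.12.

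Cd74 encodes the invariant chain, which fills the groove of new class II molecules and guides them to the endosomal compartment. Cd74 (chromosome 18 from 60803848 to 60812652) was measured at 93.5, 460.2, 189 and 735 CPM in scopolamine mice 1 to 4 and 202, 93.6, 123 and 62.6 CPM in sham mice 1 to 4. The order of the mice was that of H2-Ab1 at the top, with scopolamine mice 4 and 2 first and sham mouse 1 next. Cd74 had a log2 fold change of 1.62 (standard error 0.57, adjusted p = 0.812 in edgeR and 0.182 in DESeq2), and the exact permutation test of mean log2 CPM gave p = 0.200.

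Summed over the 4 class II genes, the level was 189.7, 677, 331 and 1175 CPM in scopolamine mice 1 to 4 and 348, 188, 243 and 145 CPM in sham mice 1 to 4. Scopolamine mouse 1 was as low as the sham mice, and sham mouse 1 was above scopolamine mice 1 and 3. Without scopolamine mouse 4 the median log2 fold change of the class II genes was 0.73, with 1.01 for H2-Aa, 0.46 for H2-Ab1 and 1.03 for Cd74, and none of the 4 class II genes then had an unadjusted p under 0.05 in edgeR. The 1 gene of the 10 that had was B2m, lower with scopolamine, against 561 of 13408 genes in that fit. Without scopolamine mouse 2 that median was 1.24. Without both low-input sham libraries, of which sham mouse 1 had the highest and sham mouse 3 the second highest class II sum of the sham group, it was 1.61.

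Each mouse ID carries 1 of 2 letters, which are not explained, M for scopolamine mice 1 to 3 and sham mouse 1, and N for the others. Among the mice with M the class II sum was 189.7, 677 and 331 CPM with scopolamine and 348 CPM in sham mouse 1, so 1 scopolamine mouse was above it. Among those with N it was 1175 CPM in scopolamine mouse 4 and 188, 243 and 145 CPM in sham. Each letter holds 1 mouse of one of the groups, too few for a test within it. With the letter as a covariate in edgeR the median log2 fold change was 1.34 for class II and -0.0012 for class I.

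Per kilobase of the principal annotated transcript, the levels spanned a wide range. In sham, H2-D1 was highest at 1792 ± 587 CPM per kb (SD, n = 4), followed by B2m at 1477 ± 323 and H2-K1 at 876 ± 170.1 CPM per kb, then Tapbp at 88.4 ± 10.7 and Cd74 at 85.3 ± 42.4 CPM per kb. H2-D1 and B2m were within 1 SD of each other, as were Tapbp and Cd74. Next came H2-Ab1 at 55.0 ± 15.9 CPM per kb, within 1 SD of Cd74, and the lowest were Tap1 at 17.8 ± 5.56, H2-Eb1 at 16.4 ± 8.21, H2-Aa at 14.95 ± 10.002 and Tap2 at 10.9 ± 1.31 CPM per kb, each within 1 SD of the others except Tap1 and Tap2. With scopolamine the first 3 were H2-D1 at 1877 ± 899, B2m at 1160 ± 354 and H2-K1 at 741 ± 167 CPM per kb, H2-D1 and B2m again within 1 SD. There Cd74 at 262 ± 205 and H2-Ab1 at 109 ± 70.3 CPM per kb stood before Tapbp at 91.8 ± 17.9 CPM per kb, each within the spread of Cd74. H2-Aa followed at 45.9 ± 34.9, then H2-Eb1 at 23.6 ± 17.4, Tap1 at 20.8 ± 9.89 and Tap2 at 14.98 ± 0.934 CPM per kb, all 4 within 1 SD of each other.

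Within a library, the summed class II count divided by the summed class I count was 0.0268, 0.157, 0.0368 and 0.205 in scopolamine mice 1 to 4 and 0.0681, 0.0215, 0.0359 and 0.0221 in sham mice 1 to 4. It was largest in scopolamine mice 4 and 2, and scopolamine mice 1 and 3 lay within the sham range. The class II chains did not keep one proportion. The Cd74 count divided by the H2-Ab1 count was 1.59, 3.62, 2.08 and 2.90 with scopolamine and 2.18, 1.97, 1.81 and 1.06 in sham. The H2-Eb1 count divided by the H2-Ab1 count was 0.360, 0.252, 0.243 and 0.325 with scopolamine and 0.220, 0.637, 0.667 and 0.230 in sham, so sham mice 2 and 3 had more H2-Eb1 for their H2-Ab1 than any other mouse.

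Nonclassical class I genes encode heavy chains with narrower ligands. Of 16 on the list, 14 passed the filter, 0 had an adjusted p under 0.1 in edgeR, and at an unadjusted p under 0.05 there were 2 higher and 1 lower with scopolamine (all genes 3.33% and 2.66%). Their median log2 fold change was -0.38. H2-T3 encodes the thymus leukemia antigen, a ligand of CD8 alpha homodimers that small intestinal epithelium is known for, and had 5.21, 43.5, 13.9 and 32.1 CPM in scopolamine mice 1 to 4 and 8.67, 1.39, 3.91 and 1.10 CPM in sham mice 1 to 4. Scopolamine mice 2, 4 and 3 were above all sham mice, and scopolamine mouse 1 was below sham mouse 1. Its log2 fold change was 2.66 (standard error 0.81, adjusted p = 0.812 in edgeR and 0.0611 in DESeq2), and leaving out single mice moved it between 2.17 and 3.46. With cycles as a covariate it was 4.25, and without the low-input sham libraries 4.22.

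H2-M3, which presents N-formylated bacterial and mitochondrial peptides, had 0.751, 2.06, 1.41 and 2.51 CPM with scopolamine and 4.32, 3.62, 9.51 and 6.12 CPM in sham. All 4 scopolamine values were below all 4 sham values (two-sided exact permutation test, p = 0.0286, the smallest possible). For H2-M3 the log2 fold change was -1.80 (standard error 0.69, adjusted p = 0.812 in edgeR and 0.0861 in DESeq2). H2-T23, the source of Qa-1, was the most abundant on the list, at 348 ± 82.1 CPM with scopolamine and 323 ± 68.8 CPM in sham (SD, n = 4).

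Immunoproteasome subunits, the proteasome activator and the chaperones of the loading complex supply class I molecules with peptide. All 10 genes on that list passed the filter, 0 had an adjusted p under 0.1 in edgeR, 1 was higher and 0 lower at an unadjusted p under 0.05 (all genes 3.33% and 2.66%), and the median log2 fold change was 0.010. Canx encodes calnexin, which helps new heavy chains fold. It had 145, 204, 148 and 239 CPM in scopolamine mice 1 to 4 and 125, 136, 114 and 82.2 CPM in sham mice 1 to 4. No Canx value of one group reached the other (two-sided exact permutation test, p = 0.0286, the smallest possible), and the log2 fold change was 0.69 (standard error 0.22, adjusted p = 0.812 in edgeR and 0.175 in DESeq2).

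Erap1, the trimming peptidase of the endoplasmic reticulum, had the next smallest p, with 38.2 ± 5.51 CPM with scopolamine and 31.3 ± 10.4 CPM in sham (SD, n = 4). Calr, for the chaperone calreticulin, was the most abundant at 656 ± 91.5 and 655 ± 53.5 CPM (SD, n = 4). The immunoproteasome genes Psmb8, Psmb9 and Psmb10 had log2 fold changes of -0.023, -0.042 and 0.15.

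For class II, the list of loading and processing genes held 10, of which 7 passed the filter. Of these, 0 had an adjusted p under 0.1 in edgeR, 1 was higher and 0 lower at an unadjusted p under 0.05 (all genes 3.33% and 2.66%), and the median log2 fold change was 0.43. H2-DMa encodes a chain of H2-M, which exchanges the remnant of the invariant chain for peptide, and had 12.02, 29.8, 19.6 and 75.6 CPM in scopolamine mice 1 to 4 and 12.1, 10.6, 11.5 and 19.9 CPM in sham mice 1 to 4. As for H2-Aa, H2-Ab1 and Cd74, but not H2-Eb1, scopolamine mice 4 and 2 were highest. Scopolamine mice 1 and 3 lay among the sham mice, mouse 3 just under sham mouse 4. H2-DMa had a log2 fold change of 1.34 (standard error 0.52, adjusted p = 0.812 in edgeR), and without scopolamine mouse 4 it was 0.58.

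Ctss, for the protease cathepsin S that cuts the invariant chain, had 3.86, 24.1, 8.39 and 22.8 CPM with scopolamine and 10.3, 3.96, 7.80 and 0.269 CPM in sham. Here too scopolamine mice 2 and 4 were highest, with sham mouse 1 next. Its log2 fold change was 1.41 (standard error 0.91, adjusted p = 0.844 in edgeR), with 2.80 when cycles were a covariate and 2.79 without the low-input sham libraries. Ifi30, a thiol reductase of endosomes and the most abundant on the list, was at 68.1 ± 8.76 CPM with scopolamine and 61.5 ± 13.8 CPM in sham (SD, n = 4), and its groups overlapped.

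The regulators of MHC genes and of their response to interferon gamma made a list of 16, all past the filter. In edgeR 0 had an adjusted p under 0.1, 3 were higher and 0 lower at an unadjusted p under 0.05 (all genes 3.33% and 2.66%), and the median log2 fold change was 0.078. Ciita, the coactivator needed for class II genes, was at 2.83 ± 1.90 CPM with scopolamine and 2.28 ± 2.25 CPM in sham (SD, n = 4), and Nlrc5, its counterpart for class I, at 6.42 ± 3.22 and 2.99 ± 3.31 CPM (SD, n = 4). Both had adjusted p of 0.981 and 0.884 in edgeR, and both are named for their role in these pathways, outside the rule for naming genes.

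Ifngr1, a chain of the interferon gamma receptor, had 33.5, 64.2, 29.6 and 37.0 CPM in scopolamine mice 1 to 4 and 28.2, 29.5, 20.3 and 21.3 CPM in sham mice 1 to 4. Scopolamine mouse 2 was highest, and the lowest scopolamine mouse was barely above the highest sham mouse. For Ifngr1 the log2 fold change was 0.73 (standard error 0.29, adjusted p = 0.812 in edgeR), and without scopolamine mouse 2 it was 0.42. Nfya, a subunit of the factor NF-Y that binds the Y box, had 5.21, 3.88, 5.71 and 7.23 CPM with scopolamine and 1.93, 3.18, 1.51 and 1.76 CPM in sham, again without overlap. Its log2 fold change was 1.39 (standard error 0.62, adjusted p = 0.812 in edgeR and 0.0605 in DESeq2). The unadjusted p of Nfya was 0.0483 in edgeR and was 0.05 or more in 13 of 20 alternative fits. Irf1 was the most abundant regulator, at 122 ± 38.8 CPM with scopolamine and 122 ± 34.1 CPM in sham (SD, n = 4).

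Of 14 genes of the interferon response, 11 passed the filter, 0 had an adjusted p under 0.1 in edgeR, 0 was higher and 1 lower at an unadjusted p under 0.05 (all genes 3.33% and 2.66%), and the median log2 fold change was -0.30. The lower one was Oas1a, for an enzyme that senses double-stranded RNA, with 232, 185, 251 and 221 CPM with scopolamine and 227, 339, 322 and 360.3 CPM in sham and a log2 fold change of -0.49 (standard error 0.17, adjusted p = 0.812 in edgeR). The groups overlapped through sham mouse 1. Isg15, a ubiquitin-like modifier, and Irf7, the most abundant on the list, had log2 fold changes of -0.46 and -0.43, with adjusted p of 0.819 and 0.822 in edgeR. In scopolamine mouse 4, the library with the highest class II sum, genes of the list differed from each other. Those given here were chosen after their values were seen. Gbp2 had 74 counts there, 1 in scopolamine mouse 1 and 0 in the other 6 libraries, and Iigp1 62 there, 7 in sham mouse 3 and 0 in the other 6. Ifit1, Igtp and Stat2 were also highest in that library, at 39.2, 62.2 and 54.9 CPM, and Irf7 was lowest there, at 211 CPM. Cxcl10 had at most 3 counts in any library. Ifit3 had 0 counts in scopolamine mouse 4, but also in sham mice 2 and 3. Gbp3, at 3.17 CPM in scopolamine mouse 4, lay within the range of the other libraries, 0.492 to 14.1 CPM.

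Of 6 costimulatory and checkpoint ligands, Cd80, Cd86 and Pdcd1lg2 had at most 6 counts in any library and did not pass the filter. The other 3, Cd274, Icosl and Cd40, passed it, and the median log2 fold change was -0.35. Cd274, for PD-L1, was the most abundant over the 8 libraries, at 2.55 ± 1.49 CPM with scopolamine and 3.26 ± 1.90 CPM in sham (SD, n = 4). Icosl had 4.11, 3.74, 2.47 and 3.50 CPM with scopolamine and 0.0757, 0.875, 0.471 and 4.54 CPM in sham, and Cd40 stayed under 1.78 CPM outside sham mouse 3, which was at that level. In edgeR 0 of these had an unadjusted p under 0.05.

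The promoters of class I and class II genes are known to share an array of boxes, among them an X2 box and, downstream of it, a Y box whose core CCAAT reads ATTGG on the other strand. RefSeq promoters (GRCm38.p6) were matched by symbol for 7 of the 10 genes, and the 250 bases before the start were searched on both strands. The Y box core CCAAT was present in 7 of 7, and in 33.8% of all 32851 promoters of that length. Here and below, a gene of the 7 counts if any of its promoters matched, while the share over all is of single promoters. The X2 forms searched were TGACGNNA, in 2 of 7 (H2-Aa and Tap1) and 5.66% of all, and TGNGTCA, in 2 of 7 (H2-D1 and H2-K1) and 12.96% of all. An interferon element, GAAA repeated after 2 bases, was present in 1 of 7 (B2m) and 2.98% of all. A looser arrangement, TGANG followed after 10 to 30 bases by ATTGG on the coding strand, was added after the sequences were seen. It occurred in 5 of 7 (B2m, H2-Aa, H2-D1, H2-Eb1 and H2-K1) and 2.26% of all. Also added then were TGACG alone, in 5 of 7 and 17.8% of all, and TGACG in that arrangement, in 4 of 7 and 0.310% of all. A match is a description of letters and not of a bound site.

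The stretch holding the looser arrangement is printed for 4 of the 5 genes that have it, 2 of class I and 2 of class II. That of H2-D1 is left out because it overlaps an annotated exon. The arrangement was defined after these sequences were seen, and Tap1 and Tapbp lack it. The stretches read 5′ to 3′ on the coding strand, with TGANG and ATTGG in capitals. The stretch of B2m (chr2:122147595-122147642, plus strand) lies in an intron of Patl2 and that of H2-Eb1 (chr17:34305767-34305816, plus strand) in an intron of the antisense gene Gm20513. Those of H2-K1 (chr17:34000355-34000402, minus strand) and H2-Aa (chr17:34287863-34287911, minus strand) lie between annotated genes. The 2 letter matches in capitals are 20 bases apart in B2m and H2-K1, 21 in H2-Aa and 22 in H2-Eb1. At the TGANG in capitals, the X2 form TGACGNNA is complete in H2-Aa alone.
B2m: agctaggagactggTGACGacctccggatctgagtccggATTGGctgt
H2-K1: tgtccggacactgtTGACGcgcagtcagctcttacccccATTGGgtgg
H2-Aa: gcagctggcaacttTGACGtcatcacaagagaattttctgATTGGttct
H2-Eb1: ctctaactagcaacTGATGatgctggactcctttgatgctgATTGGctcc

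Over the 8 libraries, the pattern of H2-Ab1, as log2 CPM centred on its own mean, differed from the mean of the other class II genes by a root mean square of 0.345, and that of Cd74 by 0.412. H2-Eb1 was farther from the other class II genes, at 0.772, than from the class I genes, at 0.705. By the same measure the 5 genes outside the 10 with a pattern closest to the class II mean were Asns, Lypd8, Glod5, Tm4sf20 and Crlf2, at 0.319 to 0.335, where the median gene was at 1.05. The 5 closest to the class I mean were Gtf2f2, Fbxo6, Mllt3, Slc30a9 and Vps51, at 0.0861 to 0.0963, where the median gene was at 0.561.

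**Figure D2:**
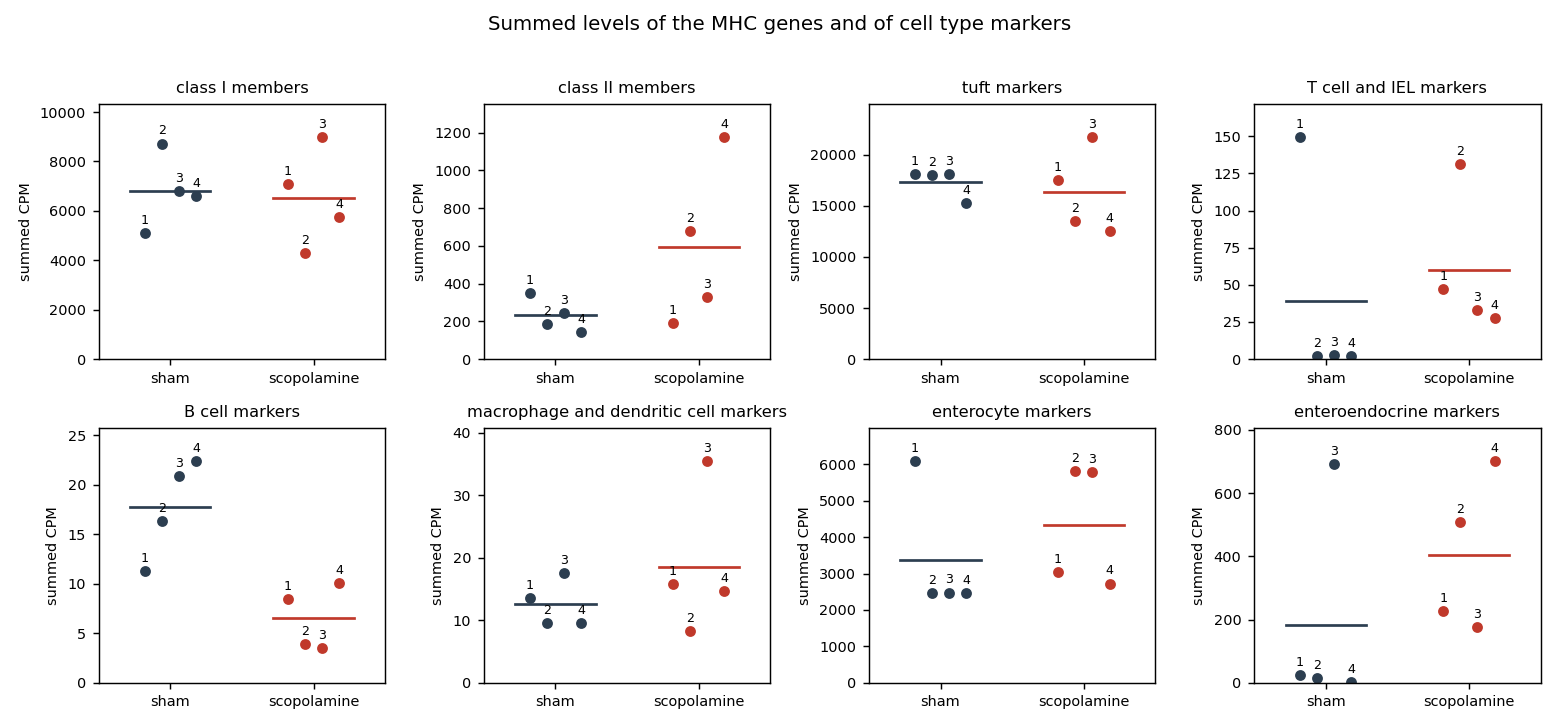
Summed CPM (vertical axis, linear from 0, scaled per panel) of the 6 class I and 4 class II genes and of 6 lists of cell type markers in the 4 sham and 4 scopolamine libraries; points are mice, numbered 1 to 4 in each group, and lines are group means. The class II sum is highest in scopolamine mice 4 and 2, the macrophage and dendritic cell sum in scopolamine mouse 3, and the B cell sums of the groups do not overlap.

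Markers of other cells were read beside these values, because class II genes are abundant in dendritic cells, macrophages and B cells. In bulk RNA, fewer cells of a type and less RNA per cell cannot be told apart. The 13 macrophage and dendritic cell markers summed to 15.8, 8.24, 35.4 and 14.7 CPM in scopolamine mice 1 to 4 and 13.6, 9.53, 17.5 and 9.49 CPM in sham mice 1 to 4. The highest sum was in scopolamine mouse 3 and the lowest in scopolamine mouse 2, which had the second highest class II sum. Lyz2 was the most abundant of them, and 2 of the 13, Lyz2 and Itgam, passed the filter. At 0 counts were 2 of the 13 in scopolamine mouse 4 and 2 in scopolamine mouse 2. The dendritic cell markers Xcr1, Zbtb46, Flt3 and Itgax had means of 0.657, 0.326, 0.0720 and 0.0355 CPM with scopolamine and 0.309, 0.139, 0.0284 and 0 CPM in sham. In scopolamine mouse 4, the library with the highest class II sum, markers of this list differed from each other. Itgax had counts only there, 3 in all, which is the floor used here, and Cd68 was highest there, at 3.07 CPM. Itgam and Csf1r were lowest of all libraries there, at 1.65 and 0.0473 CPM, and Adgre1 and Flt3 had 0 counts there.

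The 4 B cell markers, Cd79b the most abundant, summed to 8.52, 3.88, 3.53 and 10.1 CPM with scopolamine and 11.3, 16.4, 20.9 and 22.4 CPM in sham. All 4 scopolamine sums were below all 4 sham sums (two-sided exact permutation test on the log2 scale, p = 0.0286, the smallest possible), the opposite order to the class II means. Cd79a was at 0 in scopolamine mouse 1 and in sham mice 1 and 4. The 3 plasma cell markers, Igha the most abundant, summed to at most 4.96 CPM in any library.

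The 13 markers of T cells and intraepithelial lymphocytes, the main source of interferon gamma in the epithelium, summed to 46.9, 131, 33.2 and 27.7 CPM in scopolamine mice 1 to 4 and 149, 2.29, 2.70 and 2.09 CPM in sham mice 1 to 4. Sham mouse 1 and scopolamine mouse 2 were highest, and the other 3 sham mice were lowest. Gzma was the most abundant of the 13, and 9 of them were at 0 in sham mouse 4 against 0 in scopolamine mouse 2. Trac, for the alpha chain of the T cell receptor, had 1.80, 4.73, 4.16 and 5.06 CPM with scopolamine and 0.871, 1.46, 1.07 and 0 CPM in sham, without overlap (adjusted p = 0.812 in edgeR). Scopolamine mouse 4, with the highest class II sum, had the highest Cd3d, Cd8a, Trac and Trbc1 levels of its group and the lowest Cd3e, Cd3g, Cd8b1, Trbc2, Cd7 and Gzma levels. Sham mouse 1, with the highest lymphocyte sum, had the highest class II sum of its group. Whether lymphocytes had a part in the class II levels was not tested.

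Among epithelial types, the 8 enterocyte markers, Fabp1 the most abundant, summed to 3048, 5806, 5790.1 and 2727 CPM with scopolamine and 6082, 2474, 2479 and 2471 CPM in sham, and their median log2 fold change was 1.64. Fabp1 made up most of each sum, and all 8 markers had a log2 fold change above 0. The sums were highest in sham mouse 1 and scopolamine mice 2 and 3, the mice with at most 4 Eif2s3y counts. Whether sex had a part in these sums was not tested. The sum of scopolamine mouse 4 was near those of sham mice 2 to 4. In scopolamine mouse 4, Fabp1 was lower than in those 3 mice, Lct was lower than in sham mouse 4, and the other 6 markers were higher than in all 3. Slc5a1, for a glucose transporter, had 56.3, 187, 134 and 142 CPM in scopolamine mice 1 to 4 and 39.9, 8.46, 34.5 and 8.15 CPM in sham mice 1 to 4, without overlap. For Slc5a1 the log2 fold change was 2.51 (standard error 0.57, adjusted p = 0.812 in edgeR and 0.00464 in DESeq2). The 6 enteroendocrine markers, Chgb the most abundant, summed to 227, 509, 178 and 701 CPM with scopolamine and 25.0, 15.7, 691 and 2.75 CPM in sham. They were high in scopolamine mice 4 and 2, as the class II sum was, but also in sham mouse 3, where the class II sum was 243 CPM.

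The 4 Paneth markers, Lyz1 the most abundant, summed to 81.3, 69.1, 39.1 and 916 CPM with scopolamine and 88.0, 36.8, 100.04 and 71.9 CPM in sham, so scopolamine mouse 4 stood far above the rest here too. Their median log2 fold change of 1.92 rests on that mouse, since the other 3 scopolamine sums lay within the sham range. The 5 goblet markers, Tff3 the most abundant, had a median log2 fold change of 1.17 and ran from 469 to 1859 CPM with scopolamine and from 277 to 984 CPM in sham. The 4 stem cell markers, Ascl2 the most abundant, ran from 99.0 to 218 and from 158 to 217 CPM. The 5 endothelial and stromal markers, Pecam1 the most abundant, stayed at or under 14.5 CPM. Goblet, Paneth, enterocyte and enteroendocrine cells carry class I, and the small intestinal epithelium can carry class II, so RNA of other epithelial cells could add to either, and its part in these values was not tested.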

How the data were processed

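RNA of ZSgreen-positive cells of 8 mice was amplified with a Clontech Ultra Low v4 kit and sequenced in bulk. The authors converted and trimmed reads with bcl2fastq 2.20, assigned them to GRCm38 transcripts with kallisto 0.44.0, summed them by gene with tximport, and the values they deposited are estimated counts, not normalized. Which annotation release was used, and whether strand was, is not given in the sources used here. Groups and numbers of cells come from the labels, and RNA input and cycles from the study's source data. Counts were rounded to whole numbers, which changed 0 values. The groups, 4 and 4, were compared with edgeR 4.0.16 (quasi-likelihood, TMM, filterByExpr, Benjamini-Hochberg over 12849 genes, adjusted p under 0.1) in R 4.3.3. Standard errors are the fold change over the root of the F statistic, and log2 CPM has a prior count of 2. Single genes were also compared by exact permutation over 70 assignments.

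Other fits tried were limma-voom (limma 3.58.1) and DESeq2 1.42.0, and edgeR with robust dispersions, with size factors from DESeq2, with unscaled library sizes, without the filter, with a filter of 10 counts per library or more, with a threshold of 0.05, without the 2 low-input sham libraries, with cycles, mouse ID letter or Eif2s3y (Y-linked, since sex is not given per mouse) as covariates, on counts thinned to the smallest total, and without each mouse. The edgeR fit was tested on simulated data. Positions, lengths and 31-base words come from GENCODE M21, which holds 34887 of the 35199 symbols, and promoters from RefSeq. Libraries of a group differed by more than counting error alone (chi-square over degrees of freedom at least 67.5). Amplified reads of different mice would exceed that in any case, so nothing is concluded from it. The genes and lists were chosen with earlier results of these data known. Of each list of MHC, interferon and costimulation genes, the text names those past the adjusted threshold in edgeR (there were 0). It also names the 2 with the smallest unadjusted p, the most abundant and those at 0 counts in all libraries (also 0). Of the cell type marker lists only the most abundant gene was named by rule. Other genes named were chosen for their role or after their values were seen. One listed gene, H2-T9, is not in the table.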

Additional observations from a re-analysis of the deposited data

Results flagged for a closer look

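Each of 76 sets of 4 values, a gene, ratio or summed list within a group, was searched for a mouse far from the other 3. There were 7 such sets, in which the gap to the nearest mouse was at least 0.891 of the range of the 4 values. The search is meant to find about 1 in 20 by chance. The sets share libraries and are not independent, so no excess is read from this count. Scopolamine mouse 4 was high for B2m, at 1453 CPM against 810.0 to 879.8 CPM in the other 3, for Tap1, at 105 CPM against 44.9 to 49.5 CPM, and for the Paneth markers, at 916 CPM against 39.1 to 81.3 CPM. Sham mouse 1 was high for the T cell and intraepithelial lymphocyte markers, at 149 CPM against 2.09 to 2.70 CPM. It was also high for the enterocyte markers, at 6082 CPM against 2471 to 2479 CPM. Scopolamine mice 2 and 3, which like sham mouse 1 had at most 4 Eif2s3y counts, had enterocyte sums of 5806 and 5790.1 CPM. Sham mouse 3 was high for the enteroendocrine markers, at 691 CPM against 2.75 to 25.0 CPM, and sham mouse 4 was low for the tuft markers, at 15263 CPM against 18033 to 18151 CPM. The 4 class II genes gave no such set, though scopolamine mouse 4 also stood apart for H2-Eb1, at 82.4 CPM against 21.2 to 32.0 CPM. The causes were not tested.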

How the results depend on the processing

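In edgeR, 0 genes were past the adjusted threshold, and other settings gave 190 (DESeq2), 9 (without the low-input sham libraries), 5 (cycles as covariate) and, with single mice left out, 2 (sham mouse 1), 1 (scopolamine mouse 4) or 0. Of the 10 genes, 1 was past it with DESeq2 and 0 in the other 20 alternatives, which had 1 to 4 of the 10 at an unadjusted p under 0.05. Over all genes that count ran from 442 of 13270 (without scopolamine mouse 2) to 1831 of 21805 (no filter). The unadjusted p in edgeR was not under 0.05 for Cd74 without scopolamine mouse 4 (0.0719), for H2-Aa without scopolamine mouse 4 (0.103), sham mouse 3 (0.0526) or sham mouse 4 (0.0590), and for H2-Ab1 without scopolamine mouse 2 (0.0505), scopolamine mouse 4 (0.161), sham mouse 2 (0.0827), sham mouse 3 (0.0546) or sham mouse 4 (0.0718). Named genes of the MHC, interferon and costimulation lists with an unadjusted p under 0.05 in edgeR were followed too. Their p was 0.05 or more in 13 of 20 alternatives for Nfya, 7 of 20 for H2-DMa and 7 of 20 for Ifngr1. It was so in 6 of 20 for H2-M3, 3 of 20 for Oas1a, 0 of 20 for H2-T3 and 0 of 20 for Canx. Slc5a1, of a marker list, was not followed in this way. The class II median stayed above 0 in 20 alternatives, from 0.73 to 1.64. The class I median ran from -0.14 (without scopolamine mouse 3) to 0.19 with each mouse left out, and was above 0 in 12 of 20 alternatives. H2-Aa, H2-Ab1, Cd74 and Tap2 were above 0, and H2-K1 and B2m below 0, in all 20 alternatives. The lowest adjusted p of Tap2 over these was 0.0861 and the highest 0.999.

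Log2 fold changes that changed sign were those of H2-D1 (cycles -0.12, without low-input libraries -0.14, limma-voom -0.038), Tapbp (mouse ID letter -0.081), Calr (cycles -0.068, without low-input libraries -0.10, limma-voom -0.0064, no filter -0.030), Irf1 (Eif2s3y covariate -0.065, limma-voom -0.045, no filter -0.025), Cd274 (mouse ID letter 0.25) and Cd40 (cycles 0.25). With each mouse left out, the log2 fold change ran from -0.25 to 0.31 for H2-D1, -0.12 to 0.88 for H2-Eb1, -0.17 to 0.41 for Tap1, -0.026 to 0.18 for Tapbp, -0.11 to 0.057 for Calr, -0.13 to 0.20 for Irf1, -0.066 to 0.24 for H2-T23 and -0.86 to 0.015 for Cd274. Over all alternatives the log2 fold change ran from -0.42 to -0.015 for H2-K1, -0.60 to -0.10 for B2m, 1.01 to 2.15 for H2-Aa, 0.46 to 1.32 for H2-Ab1, 1.03 to 2.24 for Cd74, 0.58 to 1.62 for H2-DMa, 1.01 to 2.80 for Ctss, 0.31 to 2.94 for Icosl, 0.10 to 0.72 for Erap1 and 0.016 to 0.25 for Ifi30. H2-T3, H2-M3 and Nfya passed the adjusted threshold with DESeq2 only. The cause was not tested.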
